A study of Mus musculus with 4 samples.

Results

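The renin-angiotensin system was followed through 8 genes in single mouse kidney cells after an injection of FGF23, the bone hormone that lowers phosphate reabsorption in the kidney by way of Klotho-bound FGF receptors. The genes were Ren1, Agt, Ace, Agtr1a, Mme, Anpep, Enpep and Atp6ap2, chosen by symbol as 8 of the 31053 genes in the deposited feature lists, and all 8 were found. Kidneys came from male and female C57BL/6J mice aged 10 weeks. Every injected group had received a single intraperitoneal dose of 10 µg of recombinant human FGF23 per mouse, with kidneys collected 1, 4 or 12 h later, beside an undosed group at 0 h. Kidneys of male and female mice were digested together, dead cells were removed with Annexin V beads, and each group gave 1 droplet library of raw UMI counts, where a UMI tags 1 captured transcript. The labels place the control at 0 h, but its matrix carries a name that speaks of saline and 1 h. It is the 0 h library here, and the labels leave unsettled if those mice had an injection.

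In this system the enzyme renin cuts angiotensinogen to angiotensin I, and angiotensin-converting enzyme turns that into angiotensin II, which acts mainly through the AT1 receptor. Peptidases on the brush border of the proximal tubule shorten angiotensin peptides further: neprilysin forms angiotensin-(1-7), aminopeptidase A forms angiotensin III and aminopeptidase N forms angiotensin IV. In the kidney renin is made by juxtaglomerular cells, modified smooth muscle cells at the glomerular pole of the afferent arteriole, while the proximal tubule makes angiotensinogen, converting enzyme and AT1 receptor itself.

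The 4 libraries held 12245 to 13813 barcodes and 139675666 to 158838728 UMIs. Filtering and doublet calls left 8711 to 10078 cells per library, with median depths of 8714 to 11093 UMIs. Pairs of libraries shared 36 to 57 barcodes, which was 0.294% to 0.465% of the smaller library. Cells were grouped into 12 classes by marker genes that did not include the 8 genes, and each class carries "-like" because the names were rebuilt here. Proximal tubule (PT-like) cells numbered 6505, 6199, 7176 and 6279 at 0, 1, 4 and 12 h, the order of times used throughout. They were split into segments, the early convoluted S1-like, the S2-like and the late straight S3-like, with S3-like cells making up only 4.75%, 2.39%, 3.804% and 3.33% of them. Levels are given as CPM, the UMIs of a gene scaled to a fixed total in each library and class. Their 95% intervals are exact Poisson ones and cover counting error only. Each group was 1 library, so no change with time has a replicate check or a p-value.

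Short stretches before the start sites of 5 members are shown because the enzyme and substrate of the first step, Ren1 and Agt, carry the letters of a TATA box there and others do not. Each is the 30 bases from 40 to 11 bases before the RefSeq start on GRCm38.p6, written 5′ to 3′ on the gene's strand, with TATAAA or its reverse complement TTTATA in capitals.
Ren1, chr1:133350634-133350663, plus strand: tacatggtgtgTATAAAagaaggctcaggg
Agt, chr8:124569717-124569746, minus strand: accccttgagTATAAAtaagcctgcttggc
Ace, chr11:105967908-105967937, plus strand: tggctgggtTTTATAatccgcagggcggtc
Anpep, chr7:79848221-79848250, minus strand: gtagttcgggcggagcggtggtgggctcgg
Atp6ap2, chrX:12587719-12587748, plus strand: cgctcgtgtagcggcgtagttggcgattgg
TATAAA began 29 bases before the start of Ren1 and 30 bases before that of Agt. In Ace the letters stood on the opposite strand, 31 bases before the start. Of 32851 RefSeq windows of 250 bases before a start, 7.59% held TATAAA on the gene's strand and 12.4% on either strand. Windows were matched for 7 of the 8 members. The windows of Mme and Anpep, Atp6ap2 and the second window of Ace held no match on either strand, and that of Enpep held 1 on the opposite strand 52 bases before the start. A match is a description of these letters and not of a bound site.

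Ren1, which encodes renin (ENSMUSG00000070645, GENCODE vM21 on GRCm38, chr1:133350510-133360325, plus strand), came from very few cells. In mural/mesangial-like cells, the class of smooth muscle, pericyte and mesangial markers, Ren1 stood at 25476, 13589, 8735 and 14.8 CPM, on 5885, 2374, 4378 and 2 UMIs. The exact interval ran from 24829 to 26135 CPM in the 0 h library and from 1.79 to 53.4 CPM in the 12 h library. These levels rested on 44, 32, 59 and 23 cells, in which 8 of 9 markers of the class were detected in the 0 h library, the PT markers summed to 762, 859, 1008 and 1079.5 CPM and the endothelial markers to 30.3, 744, 227 and 591 CPM. The class held 98.5%, 99.3% and 97.0% of all Ren1 UMIs at 0, 1 and 4 h, and 0.565% at 12 h. Cells with 10 or more Ren1 UMIs were counted as renin cells, and there were 8, 9, 9 and 1 of them in the 4 libraries. They held 99.1%, 99.3%, 98.8% and 98.0% of Ren1 UMIs, so the libraries differed in how much each renin cell carried as well as in their number. A single cell held 55.5%, 52.9%, 25.8% and 98.0% of the library's Ren1 UMIs, with 3313, 1266, 1165 and 347 UMIs. At 0 h that cell devoted 36.3% of its 9137 UMIs to Ren1.

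**Figure D1:**
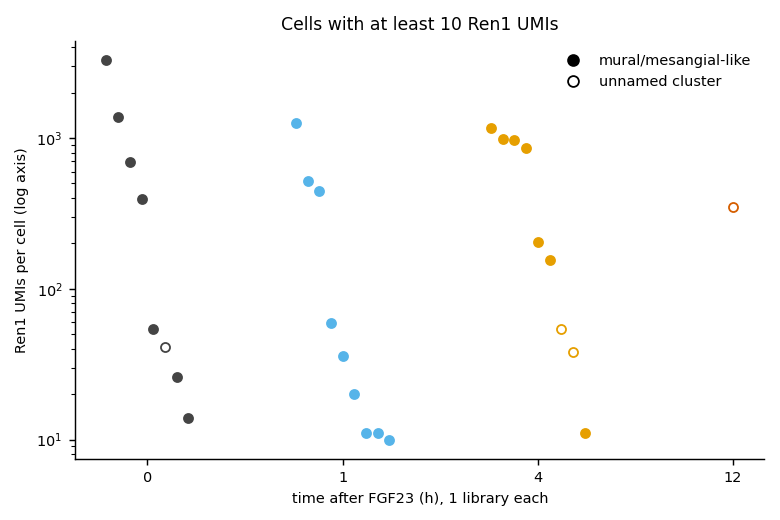
Ren1 UMIs per cell (log axis) for every cell with at least 10, by time after FGF23 (h, 1 library each). Each point is a cell, filled if mural/mesangial-like and open if in an unnamed cluster. The libraries at 0, 1 and 4 h have 8 or 9 such cells and the 12 h library has 1.

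Over all cells Ren1 gave 5973, 2391, 4512 and 354 UMIs, with log2 ratios to 0 h of -1.39, -0.63 and -4.03 in the 3 later libraries. The 4 h value was carried by 1 cell of the 0 h library: without the richest cell of each library it was 0.10, while the 12 h value was then -8.43. Renin cells made up 7 of 44 mural/mesangial-like cells in the 0 h library (15.9%, exact Clopper-Pearson 95% interval 6.64 to 30.1) and 9 of 32 in the 1 h library (28.1%, 13.7 to 46.7). They were 7 of 59 in the 4 h library (11.9%, 4.91 to 22.9) and 0 of 23 in the 12 h library (up to 14.8%). These intervals overlap among the 4 libraries. Doublet calls had removed 0, 2, 3 and 1 further cells with 10 or more Ren1 UMIs, and the single 12 h renin cell (19848 UMIs, 347 of them Ren1) sat in an unnamed cluster led by Stmn2. The other 7 juxtaglomerular markers, summed without Ren1, stood at 16853, 12701, 8160 and 11453 CPM in the class, and 4 of the 7 were detected at 0 h. Akr1b7, an aldo-keto reductase that marks renin cells, stood at 606, 990, 423 and 251 CPM. Most of the sum was Acta2, smooth muscle actin, at 10757, 7538, 4856 and 7046 CPM. Acta2 was lower in renin cells than in cells of the class under 10 Ren1 UMIs, so the sum does not show juxtaglomerular cells. Whether the sampling of so few cells, their recovery or the injection set the 12 h level was not tested.

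The 27 renin cells of all libraries were compared with the other 135 mural/mesangial-like cells, as a description because Ren1 chose them. Akr1b7 was detected in 24 of the 27, at 1907 CPM against 182 CPM in the other cells. Agtr1a stood at 116 CPM in them (76.4 to 169, 27 UMIs in 16 cells) and at 30.4 CPM in the others (20.02 to 44.2). Agt went the other way, with 0 UMIs in renin cells and 76.5 CPM in the others, and Mme likewise, with 0 UMIs and 96.7 CPM. Enpep (77.3 and 112 CPM) and Atp6ap2 (125 and 95.6 CPM) had overlapping intervals in both sets. No renin cell thus held a UMI of renin's own substrate.

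Outside the class and the unnamed clusters, which held 48, 4, 111 and 349 Ren1 UMIs, Ren1 was near 0. PT-like cells held 30, 11, 21 and 1 Ren1 UMIs, or 0.346, 0.123, 0.217 and 0.0126 CPM. Ren1 in PT-like cells was highest and lowest in the same libraries as in all cells. The share of PT-like cells with a Ren1 UMI was 0.461%, 0.177%, 0.265% and 0.0159%, and 0.0639%, 0.0493%, 0.0426% and 0 after thinning each cell to 2000 UMIs. T/NK-like cells and B-like cells, which make no renin, held at most 1 Ren1 UMI in each library. At 0 h they numbered only 267 and 194, with medians of 2735 and 2039 UMIs. Such small and shallow classes cannot show if the PT-like level lay above background. Free RNA was not measured, so expression of Ren1 by PT-like cells cannot be told apart from it at these counts.

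**Figure D2:**
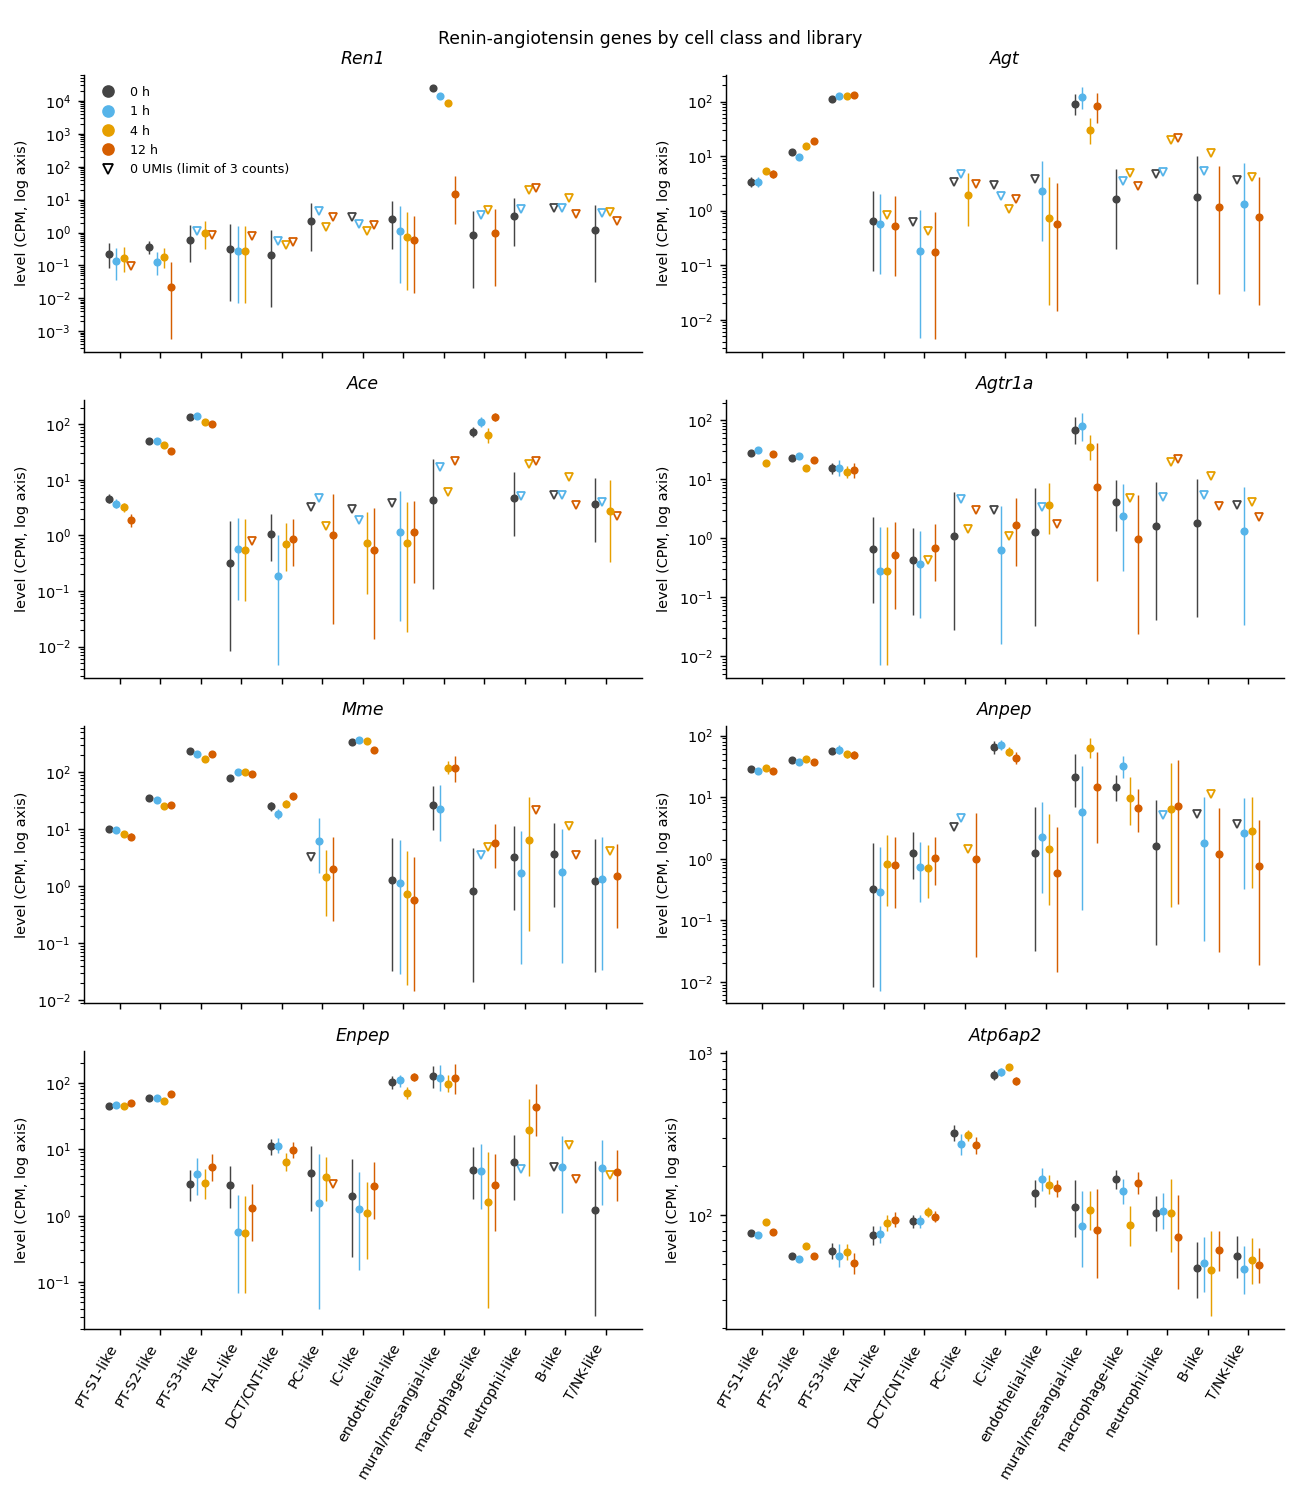
Level of each of the 8 genes (CPM, log axis) in the 3 proximal segments and 10 other classes, 1 point per library coloured by time (h), with exact Poisson 95% intervals and triangles at the limit of 3 counts where no UMI was seen. Ren1 stands alone in mural/mesangial-like cells, Agt and Ace climb from S1-like to S3-like, Enpep is high in S1-like and S2-like and low in S3-like cells, and Atp6ap2 is measured in every class with its highest level in IC-like cells.

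Agt, which encodes angiotensinogen (ENSMUSG00000031980, chr8:124556534-124569706, minus strand), was a gene of the late proximal tubule. PT-like cells held 95.8%, 92.5%, 97.0% and 95.7% of its UMIs. Agt stood at 3.34, 3.37, 5.37 and 4.80 CPM in S1-like cells, at 12.0, 9.69, 15.3 and 19.3 CPM in S2-like cells, and at 114, 125, 125 and 130 CPM in S3-like cells. The segments did not overlap in any library, and the mean log2 difference between S3-like and S1-like cells was 4.89. An Agt UMI was found in 23.2%, 23.3%, 22.3% and 24.4% of S3-like cells thinned to 2000 UMIs (76.4%, 75.0%, 76.9% and 71.3% before thinning). It was found in none of the thinned TAL-like cells, the thick ascending limb, of any library. In mural/mesangial-like cells Agt stood at 90.9, 120, 29.9 and 81.3 CPM on 11 to 21 UMIs. An unnamed cluster led by Dcn, a matrix proteoglycan of fibroblasts, stood at 39.4, 64.1, 37.1 and 48.9 CPM.

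Relative to 0 h, Agt in PT-like cells (15.2, 10.97, 17.5 and 18.5 CPM) was lower at 1 h, with a log2 ratio of -0.47 (exact conditional binomial 95% interval -0.60 to -0.35), and higher in the later libraries, with 0.20 (0.09 to 0.30) and 0.28 (0.17 to 0.39). The ratios were -0.31, 0.35 and 0.69 in S2-like cells and 0.01, 0.69 and 0.52 in S1-like cells. S3-like cells, where Agt was highest, had 0.13, 0.13 and 0.19, the interval at 12 h being 0.01 to 0.37. S3-like cells were 2.39% of PT-like cells at 1 h against 4.75% at 0 h. Within segments, Agt at 1 h was lower in S2-like cells (-0.31), which were 57.4% of PT-like cells. It was not lower within S1-like or S3-like cells. The 1 h ratio over all PT-like cells therefore mixes segment shares with levels within segments, and their parts were not tested.

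Ace encodes angiotensin-converting enzyme (ENSMUSG00000020681, chr11:105967945-105989964, plus strand, where the antisense gene Gm11651 overlaps it). PT-like cells held 91.8% to 97.6% of its UMIs. Ace stood at 4.61, 3.74, 3.24 and 1.86 CPM in S1-like cells, 50.6, 49.98, 41.6 and 33.3 CPM in S2-like cells, and 137, 141, 112 and 101 CPM in S3-like cells, a mean log2 difference between the ends of 5.24. The order S1-like, S2-like, S3-like held in all 4 libraries, and within each segment the 12 h library was the lowest. Endothelial-like cells, the textbook site of the enzyme in lung vessels, held 0, 1, 1 and 2 Ace UMIs among 327 to 690 cells. Macrophage-like cells had 72.9, 109, 63.6 and 136 CPM. Most of that came from a cluster led by Chil3, with 306, 301, 124 and 366 CPM on 44 to 68 cells.

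Ace had the largest change in PT-like cells among the 7 members with enough UMIs, Ren1 being at 1 to 30 UMIs there. Its level was 41.4 (40.02 to 42.7), 37.1, 31.3 and 24.0 CPM (22.9 to 25.1), in steps that did not overlap in their intervals. The log2 ratios were -0.16, -0.40 and -0.78 (-0.87 to -0.70). Within segments the 12 h ratio was -0.60 in S2-like and -0.43 in S3-like cells, with intervals of -0.70 to -0.51 and -0.62 to -0.25. With segments weighted as at 0 h the ratio in PT-like cells was -0.59. In male-called cells Ace went 50.9, 49.3, 42.2 and 29.9 CPM, and in female-called cells 15.8, 10.2, 10.1 and 11.1 CPM, so in both the 0 h library was the highest. Within segments the female-called levels were 193, 174, 108 and 107 CPM in S3-like and 9.01, 7.14, 9.37 and 7.48 CPM in S2-like cells, the latter with overlapping intervals and no order by time. In male-called S2-like cells the summed markers of the S3 segment also stood lower with time, at 2096, 1989, 1562 and 1225 CPM. Their part in the Ace result was not tested.

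Agtr1a, the main mouse AT1 receptor gene (ENSMUSG00000049115, chr13:30336441-30382867, plus strand, with the sense intronic gene Gm48161 inside it), was spread over the proximal segments with the opposite slope. It stood at 27.5, 30.9, 19.2 and 26.8 CPM in S1-like cells, 23.2, 24.4, 15.3 and 21.1 CPM in S2-like cells, and 15.3, 15.6, 13.4 and 14.5 CPM in S3-like cells. PT-like cells held 95.8% to 97.4% of its UMIs. The S1-like level was the highest of the 3 in every library, although at 4 h S2-like and S3-like intervals overlapped. In female-called cells alone this slope was not seen, with 30.6, 34.3, 21.7 and 31.4 CPM in S1-like, 28.9, 30.2, 19.2 and 27.6 CPM in S2-like and 33.1, 27.8, 19.7 and 21.1 CPM in S3-like cells, whose intervals overlapped those of S1-like cells in all 4 libraries. Male-called S3-like cells had 6.90 to 8.64 CPM. Mural/mesangial-like cells had 69.3, 80.1, 35.9 and 7.39 CPM on 16, 14, 18 and 1 UMIs, the lowest being the 12 h library, which also lacked renin cells in that class.

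The 4 h library stood apart for Agtr1a. PT-like levels were 24.1 (23.1 to 25.1), 26.3 (25.3 to 27.4), 16.6 (15.8 to 17.5) and 23.0 CPM (21.96 to 24.1), and the 4 h interval overlapped none of the others. The log2 ratios were 0.13, -0.53 (-0.63 to -0.44) and -0.07 (-0.16 to 0.03). At 4 h the ratio was -0.55 in female-called and -0.65 in male-called cells, and -0.60 in S2-like cells. S3-like cells had -0.19, with an interval of -0.68 to 0.29 on 69 UMIs. The share of PT-like cells with an Agtr1a UMI, thinned to 2000 UMIs, was 5.03%, 4.91%, 3.25% and 4.62% (24.9%, 28.7%, 19.0% and 23.1% before thinning), against at most 0.275% of thinned TAL-like cells. The median mitochondrial share of PT-like cells was 15.9% at 4 h and 20.7% to 21.9% in the other libraries. With mitochondrial shares limited to 25% the 4 h ratio of Agtr1a was -0.56, and without mitochondrial UMIs in the total it was -0.63.

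**Figure D3:**
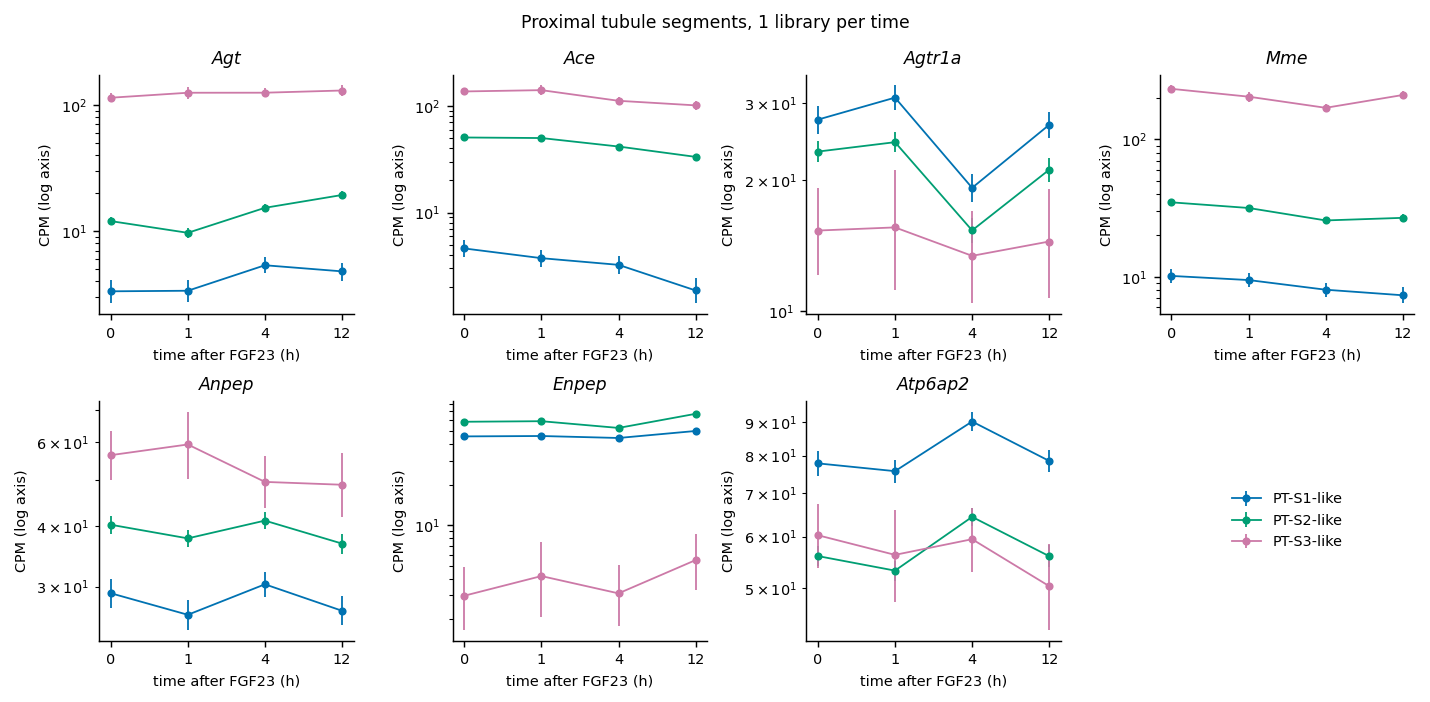
CPM (log axis) of 7 genes in S1-like, S2-like and S3-like proximal cells against time after FGF23 (h, spaced evenly, 1 library per point, bars are exact Poisson 95% intervals). Agt, Ace, Mme and Anpep are highest in S3-like cells, Enpep and Agtr1a lowest there, and Agtr1a dips at 4 h in S1-like and S2-like cells.

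Mme encodes neprilysin (ENSMUSG00000027820, chr3:63241537-63386030, plus strand). It was highest in the S3-like segment, at 233, 204, 170 and 210 CPM, against 34.8, 31.7, 25.7 and 26.9 CPM in S2-like and 10.2, 9.48, 8.06 and 7.35 CPM in S1-like cells. The mean log2 difference of Mme between S3-like and S1-like cells was 4.54, with no overlap between segments. In PT-like cells as a whole Mme was lower than the 38.7 CPM of 0 h in all 3 later libraries, at 29.3, 26.9 and 27.3 CPM, with log2 ratios of -0.40 (-0.48 to -0.33), -0.52 (-0.60 to -0.45) and -0.51 (-0.58 to -0.43). The same direction was seen in each segment, with -0.14, -0.44 and -0.37 in S2-like and -0.19, -0.46 and -0.15 in S3-like cells. The S3-like share of PT-like cells was also highest in the 0 h library, at 4.75%, and lowest in the 1 h library, at 2.39%. The 1 h ratio of -0.40 over PT-like cells thus stood beside smaller ones within S2-like and S3-like cells. The part of segment shares in it was not tested. With mitochondrial shares limited to 25% the 4 h ratio of Mme in PT-like cells was -0.25, and with segments weighted as at 0 h it was -0.44.

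Beyond the proximal tubule, Mme had a second site in IC-like (intercalated) cells, the acid and base secreting cells of the collecting duct. Their Mme level was 340, 358, 355 and 243 CPM. The level split between their clusters: the one led by Slc4a1, the basolateral exchanger of acid-secreting type A cells, had 978, 921, 935 and 833 CPM on 23 to 82 cells, and the one led by Slc26a4, the pendrin of type B cells, had 99.6, 75.1, 83.2 and 37.2 CPM on 49 to 148 cells. The mean log2 difference of Mme between these clusters was 3.71 (13.1-fold) and every library showed it. At 12 h the ratio to 0 h was -0.23 in the Slc4a1-led and -1.42 in the Slc26a4-led cluster. A Mme UMI was present in 41.4%, 37.5%, 35.7% and 23.6% of IC-like cells thinned to 2000 UMIs (59.7%, 65.1%, 58.3% and 45.2% before thinning), against 0 to 0.211% of thinned endothelial-like cells. PC-like (principal) cells, which lie beside them in the same duct, held 0, 4, 3 and 2 Mme UMIs.

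Mme was also measured along the distal nephron. TAL-like cells had 79.1, 98.6, 100.26 and 91.0 CPM, with log2 ratios of 0.32, 0.34 and 0.20, the interval of the last (-0.04 to 0.44) covering 0. DCT/CNT-like cells, of the distal convoluted and connecting tubule, had 25.2, 18.2, 27.8 and 37.6 CPM. Within them the cluster led by Slc12a3, the thiazide-sensitive cotransporter, had 32.5, 23.3, 41.3 and 64.0 CPM and a log2 ratio of 0.98 at 12 h (0.63 to 1.33). Mme therefore stood lower in the proximal tubule and higher in this distal cluster in the same 12 h library. The Dcn-led unnamed cluster had 115, 131, 118 and 137 CPM, with no order by time.

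Anpep encodes aminopeptidase N (ENSMUSG00000039062, chr7:79821803-79861059, minus strand, with Gm44974 overlapping on the same strand). Its levels were higher in each later proximal segment in all 4 libraries, at 29.1, 26.2, 30.3 and 26.7 CPM in S1-like, 40.3, 37.8, 41.1 and 36.9 CPM in S2-like, and 56.3, 59.3, 49.5 and 48.9 CPM in S3-like cells. The mean log2 difference of Anpep between S3-like and S1-like cells was 0.93. PT-like levels of 37.8, 34.5, 37.6 and 33.3 CPM gave log2 ratios of -0.13, -0.01 and -0.18 (-0.25 to -0.11 at 12 h). Like Mme, Anpep had a second site in IC-like cells, at 65.3, 71.2, 54.8 and 44.1 CPM, but endothelial-like and TAL-like cells had under 3 CPM. The PT-like cells held 93.4% to 95.8% of its UMIs.

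Enpep encodes aminopeptidase A, which removes the first residue of angiotensin II (ENSMUSG00000028024, chr3:129269175-129332720, minus strand, with the processed pseudogene Gm42628 on the other strand). It ran against the other peptidases along the proximal tubule. Enpep stood at 45.6, 45.9, 44.4 and 50.1 CPM in S1-like and 58.6, 59.2, 52.7 and 67.2 CPM in S2-like cells, and at only 2.98, 4.18, 3.11 and 5.49 CPM in S3-like cells on 11 to 19 UMIs. The mean log2 difference of Enpep between S3-like and S2-like cells was -3.91 (14.99-fold), and all 4 libraries showed it. The S3-like cells, with the highest Agt, Ace and Mme of the segments, thus had the lowest Enpep. The thinned share of cells with an Enpep UMI was 11.3%, 10.4%, 9.72% and 11.7% in S2-like cells (52.0%, 53.4%, 46.5% and 50.5% before thinning) and 0.993%, 1.37%, 0.755% and 2.03% in S3-like cells, where TAL-like cells had 0.24% to 0.549%.

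Enpep was also measured in vessel and stromal cells. Endothelial-like cells had 104, 109, 71.7 and 122 CPM, mural/mesangial-like cells 126, 120, 97.8 and 118 CPM, and the Dcn-led cluster 113, 127, 65.0 and 105 CPM, and the 4 h library was the lowest in each. In PT-like cells Enpep stood at 51.3, 53.1, 46.9 and 57.7 CPM, with log2 ratios of 0.05, -0.13 (-0.19 to -0.07) and 0.17 (0.11 to 0.23). The 4 h library was thus the lowest there too. In S2-like cells the 4 h ratio was -0.52 for female-called and -0.02 for male-called cells, a difference that was not tested.

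Atp6ap2 encodes the (pro)renin receptor, which binds renin and prorenin and is an accessory protein of the vacuolar proton pump (ENSMUSG00000031007, chrX:12587801-12617049, plus strand). It was the member found in every class. IC-like cells had 739, 767, 826 and 676 CPM and PC-like cells 323, 274, 312 and 270 CPM, and neither overlapped any other named class in any library. Below them came endothelial-like cells with 136, 167, 154 and 147 CPM, DCT/CNT-like cells with 91.4, 91.5, 105 and 97.9 CPM and TAL-like cells with 74.9, 76.2, 89.4 and 93.8 CPM. T/NK-like cells, at 55.5, 46.4, 52.7 and 48.9 CPM, and B-like cells, at 46.8, 50.3, 45.7 and 60.5 CPM, were at the low end and their intervals overlapped. The thinned share of cells with an Atp6ap2 UMI was 78.6%, 75.0%, 77.4% and 64.6% in IC-like cells and 9.39%, 8.21%, 8.85% and 8.48% in T/NK-like cells. PT-like levels were 62.9, 60.8, 73.4 and 64.4 CPM, with log2 ratios of -0.05, 0.22 (0.17 to 0.27) and 0.03. In macrophage-like cells Atp6ap2 stood at 166, 140, 86.4 and 158 CPM, a log2 ratio of -0.94 at 4 h.

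The members' changes with time in PT-like cells were counted beside those of all genes. A gene was called when it had 100 UMIs over both libraries and differed by 1.5-fold, a log2 ratio of 0.585 either way. Of the 7 members tested, with Ren1 under the UMI limit, 0 were called in the 1 and 4 h libraries and 1, Ace, in the 12 h library, while 3.15%, 10.9% and 8.8% of all genes tested in PT-like cells were called at those times. These counts are near the background share and show nothing particular to the members. With the sexes apart, the calls in female-called PT-like cells were Ace at 1 h and Mme and Ace at 4 h, all lower, beside 3.96%, 10.4% and 7.62% of genes. In male-called PT-like cells they were Mme and Agtr1a at 4 h and Mme and Ace at 12 h, all lower, beside 2.92%, 11.1% and 9.42%. In PT-like cells of both sexes and uncalled ones together, the members' median log2 ratios were -0.130, -0.129 and -0.066, beside 0.015, 0.049 and 0.022 for all genes. In S1-like cells, where 2.58%, 10.9% and 6.73% of genes were called, the calls were Agt, higher, at 4 h and Ace, lower, at 12 h. In S2-like cells, with 2.46%, 10.2% and 8.86% called, they were Agtr1a, lower, at 4 h and Agt, higher, with Ace, lower, at 12 h. In S3-like cells no member of 6 was called, beside 3.78%, 12.3% and 10.4% of genes. In the 44 to 66 female-called S3-like cells Mme and Ace were called at 4 h and Anpep and Ace at 12 h, all lower, of 5 tested, beside 24.5% and 20.2% of genes. The endothelial-like, IC-like, PC-like, TAL-like and DCT/CNT-like classes had no member called either, with 2.97%, 3.87%, 3.43%, 1.35% and 3.59% of genes called at 1 h, 6.85%, 7.16%, 9.66%, 4.07% and 13.5% at 4 h, and 4.82%, 5.64%, 7.04%, 2.78% and 9.78% at 12 h. Macrophage-like cells had Atp6ap2, lower, called at 4 h and Ace, higher, at 12 h of 2 members tested, where 6.41%, 15.7% and 8.7% of genes were called. The Chil3-led cluster, the source of most of their Ace, made up 55 of 198 of these cells at 0 h, 44 of 75 at 4 h and 68 of 152 at 12 h. The part of this mix in the 2 calls was not tested.

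**Figure D4:**
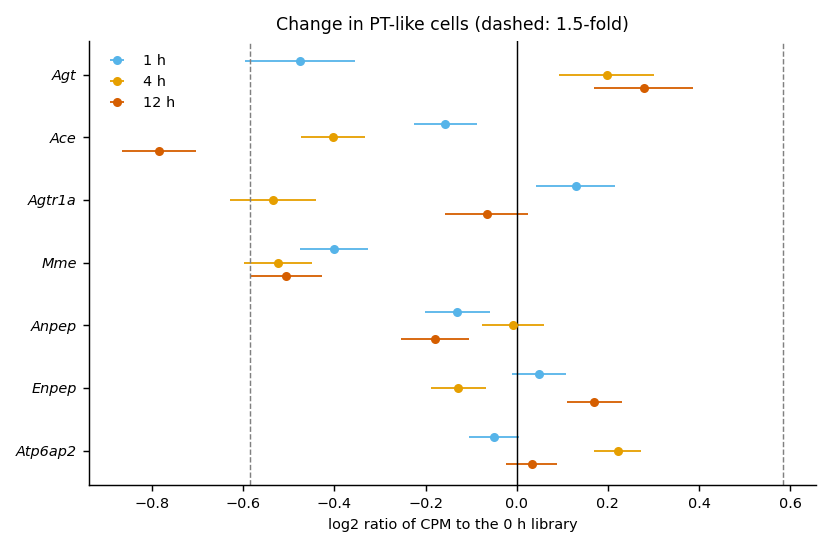
Log2 ratio of CPM to the 0 h library in PT-like cells for 7 genes at 1, 4 and 12 h, with exact conditional binomial 95% intervals (counting error only) and dashed lines at 1.5-fold. Only Ace at 12 h, at -0.78, lies past a dashed line, and Agtr1a at 4 h, at -0.53, comes near it.

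Male and female cells within a library shared the digestion, so the sexes could be compared 4 times. Cells were called by X-inactivation and Y-linked transcripts, and 31.6%, 33.6%, 38.6% and 35.7% of called PT-like cells were female. A call took at least 1 UMI of 1 sex and none of the other. This left 2101, 1868, 2378 and 2567 PT-like cells uncalled, with 111, 56, 125 and 121 of them S3-like. At 0 h the median depth was 16244 UMIs in male-called, 11780 in female-called and 12194 in all PT-like cells. The comparisons cover called cells only. The exact 2-sided sign-flip permutation test over 4 libraries cannot give a p below 0.125, and 27 such comparisons were made (adjusted p at least 0.153), so none could pass 0.05. In S2-like cells Ace stood at 9.01, 7.14, 9.37 and 7.48 CPM in female-called and 61.4, 64.5, 53.4 and 42.3 CPM in male-called cells. The groups did not overlap, and the mean log2 difference was -2.73 ± 0.32 (SD, n = 4), 6.63-fold lower in female-called cells in 4 of 4 libraries (exact permutation p = 0.125). In S3-like cells Ace was instead 107, 124, 110 and 75.3 CPM in male-called cells, against 193, 174, 108 and 107 CPM in female-called cells, 0.46 ± 0.36 higher in 3 of 4 libraries (exact permutation p = 0.25), and the groups overlapped.

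The summed markers used for the S3 segment moved with that Ace result, but Slc7a13 and Cyp7b1 among them also differed by sex within S3-like cells. Male-called S2-like cells held the S3 transporter Slc7a13 at 947, 900, 707 and 582 CPM against 27.8, 16.3, 19.0 and 14.8 CPM in female-called ones, and the summed S3 markers were 2096, 1989, 1562 and 1225 against 412, 345, 404 and 313 CPM. Cyp7b1, another S3 marker, was under 1 CPM in both, while male-called S3-like cells had 638 to 943 CPM and female-called ones 3.01 to 54.6 CPM. Within S3-like cells Slc7a13 stood at 1363 to 1600 CPM in male-called and 6.96 to 64.5 CPM in female-called cells. Both markers therefore do not tell segment apart from sex. Without the S2-like subclusters that had 3 or more S3 markers on, the Ace difference was -2.29. The sexes also lay mostly in different S2-like subclusters, 1 with 1772 female-called and 25 male-called cells and 1 with 117 and 3262. In the 7 S1-like or S2-like subclusters with at least 100 cells of each sex, the log2 difference of Ace ran from -4.44 to -1.34, lower in female-called cells in all 7, with 1 interval that covered 0. In the 4 of these that were S2-like Ace differed by -2.41, -1.39, -4.44 and -3.49, and Slc7a13 by -3.55, -1.40, -6.12 and -7.00. Slc7a13 was thus lower along with Ace in each, while Slc22a7, another S3 marker, differed by -2.73, -1.63, -1.17 (-3.16 to 0.38) and -4.30. In the S1-like ones, led by 4921539H07Rik, Sparc and Iigp1, Ace differed by -1.35, -1.34 and -2.81. Slc7a13 differed there by -0.24 (-0.67 to 0.17), -1.31 and -6.63. The first of these Ace values rested on 6 and 31 UMIs. The part of S3 markers in the Ace difference was not tested.

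In S3-like cells the sexes sat in different subclusters, 1 with 214 female-called and 4 male-called cells, led by Slc7a12, and 1 with 7 and 301, led by Cyp7b1. Of 8 S3 markers 4 were on in the first and 8 in the second, and summed S3 markers were 2415 to 2660 CPM in female-called and 4282 to 5085 CPM in male-called cells. That list includes Slc7a13 and Cyp7b1, which differed by sex within S3-like cells. The S3-like difference is thus one between these subclusters as much as between the sexes, and the parts of the 2 cannot be told apart. Agtr1a, Mme, Agt, Anpep and Atp6ap2 were higher in female-called S3-like cells of all 4 libraries. Agtr1a stood at 33.1, 27.8, 19.7 and 21.1 CPM in female-called and 8.64, 7.66, 6.90 and 7.42 CPM in male-called S3-like cells, without overlap, on 20 to 33 and 7 to 24 UMIs. Its mean log2 difference was 1.67 ± 0.24 (SD, n = 4), 3.18-fold, in 4 of 4 libraries (exact permutation p = 0.125). Mme stood at 410, 270, 251 and 287 CPM against 164, 149, 112 and 127 CPM, 1.13 ± 0.19 higher, and Agt at 165, 188, 166 and 138 CPM against 87.5, 90.2, 83.7 and 106 CPM, 0.84 ± 0.31 higher, again without overlap. The mean differences of Anpep and Atp6ap2 there were 0.63 and 0.44. Agt was reversed in S2-like cells, at 8.76, 8.37, 12.3 and 11.2 CPM in female-called and 12.7, 10.4, 16.1 and 21.7 CPM in male-called cells, a mean of -0.54. Agt was also lower in female-called S1-like cells of all 4 libraries, a mean of -0.66 ± 0.14. Over PT-like cells as a whole Agt differed by only -0.01, higher in female-called cells in 2 of 4 libraries. Atp6ap2, on the X chromosome, was 0.47 higher in female-called PT-like cells, at 80.8, 77.8, 87.4 and 80.8 against 56.3, 54.5, 67.6 and 58.3 CPM. In the 7 subclusters with at least 100 cells of each sex it differed by -0.02 to 0.63, with intervals that covered 0 in 4 of them, 0.06 (-0.05 to 0.17) in the largest. Below that limit, it differed by 0.57 (0.29 to 0.86) in a subcluster of 891 female-called and 74 male-called cells. In another of 54 and 1132 it differed by 0.01 (-0.63 to 0.59). Enpep differed by -0.05 over PT-like cells, higher in female-called cells in 2 of 4 libraries.

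**Figure D5:**
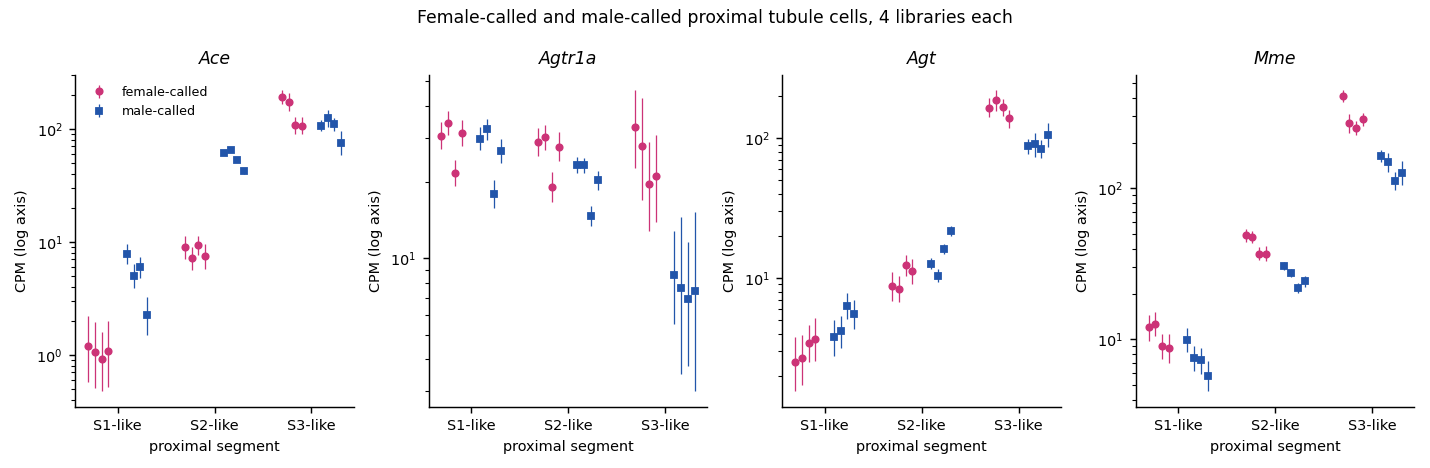
CPM (log axes) of Ace, Agtr1a, Agt and Mme in female-called (circles) and male-called (squares) proximal cells by segment, 1 point per library in order of time, bars are exact Poisson 95% intervals; most female-called and male-called cells of S2-like and S3-like lie in different subclusters. Ace is apart between the groups in S2-like cells (7.14 to 9.37 against 42.3 to 64.5 CPM) and Agtr1a in S3-like cells (19.7 to 33.1 against 6.90 to 8.64 CPM).

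The rest of the pathway was read from a list of 19 further renin-angiotensin genes. In PT-like cells 12 were tested and 0 were called at 1 h and only Klk1, higher, at 4 and 12 h, with medians of -0.00, 0.03 and 0.07. Klk1, tissue kallikrein, stood at 14.8, 15.8, 23.8 and 22.7 CPM in PT-like cells. In DCT/CNT-like cells it stood at 11175, 15554, 22584 and 20278 CPM, in the same order of the 4 libraries. Free RNA was not measured, so expression of Klk1 by PT-like cells cannot be told apart from it. Agtr1b, Agtr2 and Ctsg had under 20 UMIs over all cells and Mcpt4 and Mrgprd had none. Cma1, a chymase, came from T/NK-like cells of a cluster led by Gzma, which held 23, 28, 42 and 40 of its 23, 28, 43 and 41 UMIs (199.6, 247, 343 and 267 CPM).

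Downstream and neighbouring lists gave the setting. Among 6 genes of the mineralocorticoid arm 4 were tested in PT-like cells, and Sgk1, the kinase induced by aldosterone and glucocorticoids, stood at 42.1, 75.4, 47.6 and 9.07 CPM, log2 ratios of 0.84, 0.18 and -2.22. Hsd11b2 (-1.03) and Scnn1a (-0.85), collecting duct genes at about 1 CPM in PT-like cells, were lower at 1 h. Of 10 other brush-border peptidases 9 were tested, and the calls were Mep1b, a meprin subunit, lower at 1 h (-0.92) and 12 h (-0.88), and Cndp2, a dipeptidase, lower at 12 h (-0.80). Cndp2 stood at 1719, 1590, 1516 and 990 CPM. Of 10 proton pump genes beside Atp6ap2, 10 were tested and 0 were called at any time in PT-like cells.

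Genes most like each member were sought over the 10 classes with at least 50 cells in every library, 40 points that share libraries and depth, by Pearson's r as a description. For Agt these were Pcolce2 (0.906), Gm45645 (0.906) and Vmn1r19 (0.903), and for Ace Car9 (0.909), Arhgef39 (0.872) and Gpr85 (0.867). Agtr1a was most like C330002G04Rik (0.912) and Mbl1 (0.897), Mme most like Aldh1l1 (0.933) and Zfp385b (0.933), and Anpep most like Uap1l1 (0.896). Enpep was most like Sod1 (0.878) and Clic5 (0.872), and Atp6ap2 most like Itgb4 (0.900), 9130008F23Rik (0.898) and Atp6v0e (0.883), a proton pump subunit. For Ren1 these classes leave out its own cells, and the highest r was 0.656, with Cxcl1.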

How the data were processed

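The deposited values were raw UMI counts per gene and barcode, already limited to called barcodes by the authors. Cell Ranger 3.1.0, STAR, Seurat and mm10 are named in the submitters' processing notes, and their annotation is not given in the sources used here. Positions came from GENCODE vM21 by gene ID (99.6% of IDs found). Strand use in counting is not stated, so overlapping genes cannot be told apart.

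Barcodes with under 300 genes or over 50% mitochondrial UMIs were removed, as were doublets called per library from simulated doublets (30 neighbours, 0.8% per 1000 cells, 8.08% to 9.37% of barcodes kept). Cells were clustered jointly (leidenalg 0.10.2, 30 components, 20 neighbours, resolution 1.5) on 2031 genes without the members, into 52 clusters. Clusters were named from markers with at least 3 on, and 17 stayed unnamed (3.72% to 4.66% of cells). Proximal cells were clustered again on 1014 genes. These were 1000 variable genes, chosen after 694 sex-biased genes were left out, joined by the segment markers whatever their sex bias. Slc7a13 and Cyp7b1, both higher in male-called S3-like cells, were thus among them. The mean of each library and called sex was subtracted from every gene before this clustering. The naming thresholds were set after clusters were seen, and the members and lists were chosen with earlier results of these data known. Named genes were all 8 members, the listed genes called, and the 3 most alike genes per member.

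Summed counts gave CPM. The main log2 ratios to 0 h and the sex differences within single subclusters had no added count. The calls of members and of all genes, the mean differences within libraries and most alternatives had 0.5 added to each count. Intervals are exact and cover counting error only. The ratio calculation was tested on simulated data. Alternatives concerned filters, doublets, sex, segment weights, totals and the call threshold. Values of 1 listed gene are not reported here.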

Additional observations from a re-analysis of the deposited data

Results flagged for a closer look

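Some members moved in opposite directions at different times or in the sexes of the same library, and none of these differences was tested, since each group was 1 library. Agt in PT-like cells had a log2 ratio to 0 h of -0.47 at 1 h, against 0.20 at 4 h and 0.28 at 12 h. S3-like cells, where Agt was highest, were 2.39% of PT-like cells at 1 h and 4.75% at 0 h. Agtr1a had 0.13 at 1 h and -0.53 at 4 h. Enpep had -0.13 at 4 h and 0.17 at 12 h. At 4 h Anpep had 0.12 in male-called and -0.18 in female-called PT-like cells.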

How the results depend on the processing

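Of 240 alternatives for 24 changes in PT-like cells, 191 moved by less than the counting interval, 47 moved further and 2 reversed: Ren1 at 1 h was 0.39 and Anpep at 12 h was 0.030 in female-called cells alone. The Ace ratio at 12 h was -0.50 in female-called cells and -0.59 with segments weighted as at 0 h. The Agtr1a ratio at 4 h was -0.65 in male-called cells. The Mme ratio at 4 h was -0.25 at a mitochondrial limit of 25%, -0.62 in cells of either sex alone, -0.69 as a mean of per-cell CPM, -0.61 without mitochondrial UMIs and -0.44 with segments weighted. A minimum of 20 UMIs added Ren1 and gave 1, 1 and 2 members past 1.5-fold at 1, 4 and 12 h, and a 2-fold threshold gave 0 at 12 h.

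The alternatives for Ren1 over all cells were added after seeing the data. At 1 h the ratio was -1.27 with doublets kept, -1.31 without each library's richest cell, -2.47 at the 25% limit and -0.91 in mural/mesangial-like cells. At 4 h it was 0.10, reversed, without the richest cell, -1.23 at the 25% limit and -1.54 in mural/mesangial-like cells. At 12 h it was -3.88 with doublets kept, -8.43 without the richest cell and -10.43 in mural/mesangial-like cells. Also added, the Ace difference between sexes in S2-like cells was -2.29 without subclusters with 3 or more of the S3 markers on, and that of Agtr1a in S3-like cells was 1.14 at the 25% limit. No paired analysis was possible because each time was 1 library, so times share no pairs; the sexes were paired within libraries. The cause of these moves was not tested. With 1 library per group, differences between animals, digestions and times cannot be told apart, and rare classes rest on few cells.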

Other observations

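With mural/mesangial-like cells added to the classes compared, a choice made after seeing the data that gives 44 points, the genes most like Ren1 were Dgkb (Pearson's r 0.939), Akr1b7 (0.932) and Gucy1b1 (0.924), a subunit of the nitric oxide receptor. Mme in mural/mesangial-like cells had 6, 4, 60 and 16 UMIs, and an unnamed cluster led by Mcoln3 had a Mme level of 177, 238, 274 and 167 CPM. In DCT/CNT-like cells Mme was 2.18 and Enpep 1.65 higher on the log2 scale in the Slc12a3-led than in the S100g-led cluster, while Atp6ap2 was 0.92 lower (-0.92), each a mean over 4 libraries.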
